A study of Mus musculus with 15 samples.

Results

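Expression of 10 regional homeobox genes was followed through 15 RNA-seq libraries of mouse neural stem cells: En1, Dlx1, Dlx2, Dlx5, Dlx6, Gsx2, Emx1, Emx2, Pax6 and Lhx2. They are 10 of the 53801 genes counted. The first of them, En1, was chosen by its fall in counts after 4-hydroxytamoxifen (4-OHT), so its values in every contrast are a description without a test. The other 9 were listed for their known roles in forebrain regions, with earlier results of these data in view.

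Homeobox genes encode transcription factors that bind DNA through a homeodomain, and many of them give each part of the embryonic neural tube its regional identity. In the telencephalon, Emx1, Emx2, Pax6 and Lhx2 act in the dorsal part (the pallium), which forms the cortex, whereas Gsx2 and the Dlx genes act in the ventral part (the subpallium), the source of inhibitory interneurons. En1 belongs to another address, the boundary of midbrain and hindbrain. In the adult, stem cells of the subventricular zone keep part of this map and supply new interneurons to the olfactory bulb.

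The study asked what loss of Trrap, an adaptor of histone acetyltransferase complexes, does to transcription in adult neural stem cells (aNSCs). The cells came from the adult subventricular zone (mice aged 2 months, C57BL6/J-129sv) and were grown in culture. All cultures, controls included, carried the Rosa26-CreERT2 transgene, a recombinase driven from a ubiquitously active locus that 4-OHT switches on. 3 groups of 5 cultures were sequenced: Fl/+ untreated and Fl/+ given 4-OHT, both from mice 19, 24, 26, 35 and 36, and Fl/Fl given 4-OHT, from mice 27, 28, 29, 37 and 39. Fl/+ cells carry 1 floxed Trrap allele, which 4-OHT can also recombine, and Fl/Fl cells carry 2. There was no untreated Fl/Fl group, so genotype at baseline and deletion cannot be told apart. The labels give 5 days of treatment, and by label 3 of the 5 cultures in every group were male. The contrast of Fl/Fl 4-OHT with Fl/+ 4-OHT is called Trrap deletion here, and that of Fl/+ 4-OHT with Fl/+ untreated is called 4-OHT.

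Assigned counts per library ran from 25720034 to 32187097, so that 3 counts, taken as the floor of detection, equal 0.0932 to 0.117 CPM (the usual depth-scaled count, here with TMM-scaled library sizes). Trrap was lower after Trrap deletion (104 ± 24.2 CPM against 164 ± 26.4 CPM, mean and SD of 5), with a log2 fold change of -0.64 ± 0.16 (SE) and an edgeR adjusted p of 0.0115. The library labelled Fl/Fl 29 had 142 CPM of Trrap, inside the range of the Fl/+ 4-OHT cultures. The library labelled Fl/Fl 39, which the labels call female, had 213 CPM of Y-linked transcripts (Ddx3y, Uty, Kdm5d and Eif2s3y summed) and 0.313 CPM of Xist, so its values go against its label. Fl/Fl 29, labelled male, had 106 CPM of Y-linked transcripts, and the lowest of the other libraries labelled male had 177 CPM. Both cultures of mouse 36, labelled male, held Xist as well, with 5.89 CPM before and 74.7 CPM after 4-OHT. Each called gene named here was refitted without Fl/Fl 29 and 39 together, or for 4-OHT without both cultures of mouse 36. Those no longer called were Gsx2, Elp4 and Pitx3 under Trrap deletion, Barhl2 against untreated cultures and Mbp for 4-OHT. Trrap was lower by 0.73 ± 0.15 on the log2 scale without Fl/Fl 29 and 39 (adjusted p = 0.0116). Defining markers of neural stem cells were abundant, with a summed level of 8235 to 14144 CPM over 10 genes. The 6 microglial markers summed to 0.0698 to 2.01 CPM, the 6 endothelial and mural markers to 5.13 to 10.04 CPM, and the 6 fibroblast and meningeal markers to 5.02 to 18.2 CPM.

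Of the members, 8 had RefSeq promoter windows in GRCm38.p6, and the stretches upstream of the start that lie outside annotated exons are shown for genes whose levels the results turn on. En1 and Gsx2 had the widest differences in log2 fold change after 4-OHT among the members fitted, where En1, chosen by its fall, was not tested. Pax6 passed the test, Dlx2 belongs to the gene pair that varied from mouse to mouse, and Lhx2 is the most abundant member per length. Capitals mark any of 5 motifs on either strand. These are the GC box that Sp factors bind (GGGCGG), the CCAAT box, the TATA box (written TATAAA), a palindrome bound by many homeodomains (TAATTA) and an E-box (CACGTG). None of the marked motifs overlapped one another.

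En1: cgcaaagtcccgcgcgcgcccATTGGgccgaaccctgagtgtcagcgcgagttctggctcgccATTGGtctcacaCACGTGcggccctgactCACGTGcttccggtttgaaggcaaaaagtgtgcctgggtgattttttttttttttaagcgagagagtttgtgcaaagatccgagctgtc
Gsx2: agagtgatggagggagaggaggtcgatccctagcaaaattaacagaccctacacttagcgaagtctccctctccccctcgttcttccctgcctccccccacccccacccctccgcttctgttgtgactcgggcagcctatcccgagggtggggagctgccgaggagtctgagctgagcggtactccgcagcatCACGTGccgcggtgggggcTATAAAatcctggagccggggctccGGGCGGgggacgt
Dlx2: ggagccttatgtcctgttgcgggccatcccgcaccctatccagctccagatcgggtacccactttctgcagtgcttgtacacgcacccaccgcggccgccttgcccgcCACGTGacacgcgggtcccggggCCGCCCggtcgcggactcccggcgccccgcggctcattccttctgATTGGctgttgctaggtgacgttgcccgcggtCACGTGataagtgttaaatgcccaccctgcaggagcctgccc
Pax6: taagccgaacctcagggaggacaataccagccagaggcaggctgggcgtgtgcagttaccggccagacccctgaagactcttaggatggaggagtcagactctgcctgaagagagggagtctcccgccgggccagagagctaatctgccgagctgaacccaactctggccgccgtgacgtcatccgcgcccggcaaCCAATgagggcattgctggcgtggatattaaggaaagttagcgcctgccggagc
Lhx2: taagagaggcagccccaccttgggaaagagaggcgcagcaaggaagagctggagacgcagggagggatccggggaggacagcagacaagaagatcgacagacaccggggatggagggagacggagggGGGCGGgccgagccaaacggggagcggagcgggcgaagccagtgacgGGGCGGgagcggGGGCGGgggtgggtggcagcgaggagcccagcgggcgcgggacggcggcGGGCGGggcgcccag

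The En1 stretch is chr1:120602237-120602417 (plus strand, 181 bases), and that of Gsx2 is chr5:75075351-75075600 (plus strand, 250 bases). The Dlx2 stretch is chr2:71546755-71547004 (minus strand), that of Pax6 is chr2:105668646-105668895 (plus strand, before the first of its starts) and that of Lhx2 is chr2:38339031-38339280 (plus strand, before the first of its starts). CACGTG was found 2 times upstream of En1, 2 times upstream of Dlx2 and 1 time upstream of Gsx2, and was not found in the Pax6 and Lhx2 stretches. It occurs in 6.02% of all 32851 promoter windows over 250 bases and in 3.72% over the 181 bases used for En1. GGGCGG was found 4 times upstream of Lhx2, 1 time upstream of Gsx2 and 1 time upstream of Dlx2, against 32.7% of all windows with at least 1. CCAAT was found 2 times upstream of En1 and 1 time upstream of Dlx2 and of Pax6, against 25.2% of windows over 181 bases and 33.8% over 250. TATAAA was found only upstream of Gsx2 (12.4% of windows), and TAATTA in none of the 5 stretches (4.84% of windows). A match of letters does not show that a factor binds there.

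Per exon length, Lhx2 and Emx2 were the highest members and Emx1 the lowest. Lhx2, a LIM homeobox gene that specifies cortical progenitors, averaged 17.1 ± 3.40 RPKM over the 15 libraries (SD). Emx2 followed with 12.4 ± 2.83 RPKM, Pax6 with 3.67 ± 0.973 RPKM, Dlx2 with 1.92 ± 1.21 RPKM and Dlx1 with 0.818 ± 0.622 RPKM. En1 (0.655 ± 0.957 RPKM), Gsx2 (0.555 ± 0.625 RPKM), Dlx6 (0.383 ± 0.843 RPKM) and Dlx5 (0.125 ± 0.274 RPKM) came next, each with an SD larger than its mean. Lhx2 was above Emx2 in 14 of 15 libraries, while Emx2 above Pax6, Pax6 above Dlx2 and Dlx2 above Dlx1 held in 15 of 15. From Dlx1 downward the order was not fixed: Dlx1 was above En1 in 11 libraries and En1 above Gsx2 in 6. Emx1, the cortical partner of Emx2, had at most 2 counts in any library, which is under the floor, so its expression was not detectable at this depth. The lengths are unions of all annotated exons, 11694 bases for Pax6 and 1665 to 5396 bases for the others, which places Pax6 lower than a single transcript would.

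**Figure D1:**
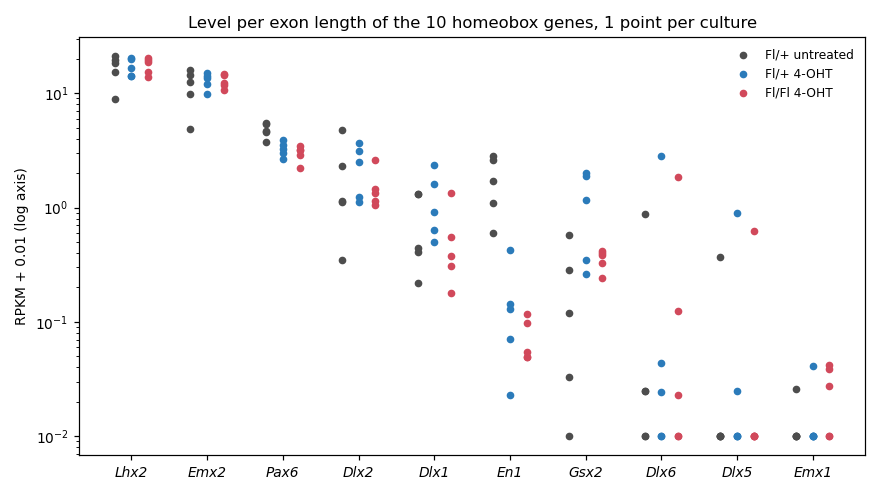
Level of each homeobox gene in RPKM + 0.01 on a log axis, with 1 point per culture and the groups in colour. Lhx2 (mean 17.1 RPKM) and Emx2 (12.4 RPKM) lie highest, and Emx1 stays at or near the lower edge in all 15 cultures.

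En1, which patterns the midbrain and the cerebellum, was present in every untreated culture and nearly lost after 4-OHT in cultures of the same mice (chr1:120602418-120607992, plus strand). The untreated cultures of mice 19, 24, 26, 35 and 36 had 2.86, 1.53, 4.41, 7.43 and 6.77 CPM of En1. After 4-OHT the same mice had 0.0338, 0.317, 0.158, 0.347 and 1.09 CPM, the first of these from 1 count. Every treated culture lay below every untreated one, and all 5 mice fell. The group means were 4.60 ± 2.51 CPM and 0.390 ± 0.413 CPM (SD, n = 5 each), a log2 difference of -3.54 ± 0.67 (SE). This is the contrast that chose the gene, and the fall is given without a test.

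In the Fl/Fl 4-OHT cultures En1 was also low, with 0.280, 0.102, 0.229, 0.116 and 0.104 CPM in mice 27, 28, 29, 37 and 39, from 3 to 9 counts. The mean was 0.166 ± 0.0827 CPM, a log2 difference of -4.72 ± 0.51 (SE) from the untreated group, again a description. Against Fl/+ 4-OHT, the groups overlapped and En1 did not pass the filter on low counts. The treated Fl/+ libraries took part in the choice of the gene, and these levels are near the floor, so no test is given here either. In bulk cultures, fewer cells that express a gene and less RNA per cell cannot be told apart, here and for every gene that follows. En2, the paralog of En1, had no such fall. En2 was at 2.61, 0.0349, 0.455, 0.385 and 4.71 CPM untreated and at 4.36, 0.127, 0.593, 0.139 and 2.19 CPM after 4-OHT in mice 19, 24, 26, 35 and 36. It was higher in 3 and lower in 2 of the 5 mice (log2 fold change -0.14 ± 1.08 SE, edgeR adjusted p = 0.95), and without mouse 36 the log2 fold change was 0.58 ± 1.21 (adjusted p = 0.789).

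Of 24 other genes on the midbrain and hindbrain list, 12 were tested after 4-OHT, 4 were lower and the rest did not pass, where 6.45% of all genes tested were lower and 7.34% higher. The median log2 fold change was -0.38, against -0.01 for all genes tested. Among the 4 was Irx3, an Iroquois homeobox gene (1.40 ± 0.694 CPM after 4-OHT against 5.86 ± 4.04 CPM untreated, log2 fold change -2.06 ± 0.51 SE, edgeR adjusted p = 0.0227). Under Trrap deletion 12 genes of this list were tested and 1 was called (31.7% of all genes), Pitx3, higher, a factor of midbrain dopaminergic neurons (2.35 ± 0.948 CPM against 0.726 ± 0.488 CPM, 1.71 ± 0.47, adjusted p = 0.0171, and 0.0630 without Fl/Fl 29 and 39). In the contrast of Fl/Fl 4-OHT with untreated cultures, 13 were tested, 2 were higher and 5 lower, where 15.7% of all genes were higher and 15.1% lower. Without Fl/Fl 29 and 39, 2 of the 13 were called, both lower, where 18.4% of all genes were called in that smaller fit. Barhl2 was among the higher (12.0 ± 1.04 CPM against 2.98 ± 3.01 CPM, log2 fold change 2.02 ± 0.66, adjusted p = 0.0378, and 0.103 without Fl/Fl 29 and 39).

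The Hox genes, which mark hindbrain and spinal cord, were almost silent: 34 of 39 were at or under the floor in every library, and 25 had no count in any.

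Pax6, a paired homeobox factor of cortical and olfactory bulb neurogenesis, was the 1 member called in the 4-OHT contrast (chr2:105668900-105697364, plus strand). In mice 19, 24, 26, 35 and 36 it was at 54.8, 64.4, 63.0, 43.8 and 53.5 CPM untreated. After 4-OHT it was at 31.2, 45.8, 41.0, 34.9 and 37.8 CPM. All 5 mice fell, although the treated culture of mouse 24 stayed above the untreated culture of mouse 35. The log2 fold change was -0.55 ± 0.13 (SE), or 1.46-fold lower, with an adjusted p of 0.0182 by edgeR and p = 0.0159 by an exact two-sided permutation test (n = 5 each). The exact sign-flip test over the 5 mice gave p = 0.0625, the smallest it can give. Without the treated culture of mouse 19 or that of mouse 35 the adjusted p rose to 0.0504 and 0.0527, and over all 19 alternatives it lay between 0.00203 and 0.0527. Without both cultures of mouse 36 it was 0.0490.

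In Fl/Fl 4-OHT cultures Pax6 was at 37.0, 33.8, 36.8, 25.8 and 40.04 CPM in mice 27, 28, 29, 37 and 39, all below every untreated culture. The fall from the untreated group was 0.68 ± 0.14 on the log2 scale, 1.60-fold lower (edgeR adjusted p = 0.00412, exact permutation p = 0.00794, the smallest that 5 against 5 allows). It was called under every one of the 18 alternatives for this contrast, with an adjusted p between 7.3e-05 and 0.0122, the latter without Fl/Fl 29 and 39. Between the 2 groups given 4-OHT the difference was small (-0.12 ± 0.13, adjusted p = 0.519, exact permutation p = 0.381). The 2 contrasts with untreated cultures share those 5 libraries, so they are not independent of each other. Elp4, a gene 3662 bases from Pax6 on the other strand, was lower in 5 of 5 mice after 4-OHT but did not pass the test (-0.25 ± 0.11, adjusted p = 0.137), and was higher under Trrap deletion (0.25 ± 0.09, adjusted p = 0.0409, and 0.125 without Fl/Fl 29 and 39). The antisense transcript Pax6os1 had at most 1 count in any library.

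**Figure D2:**
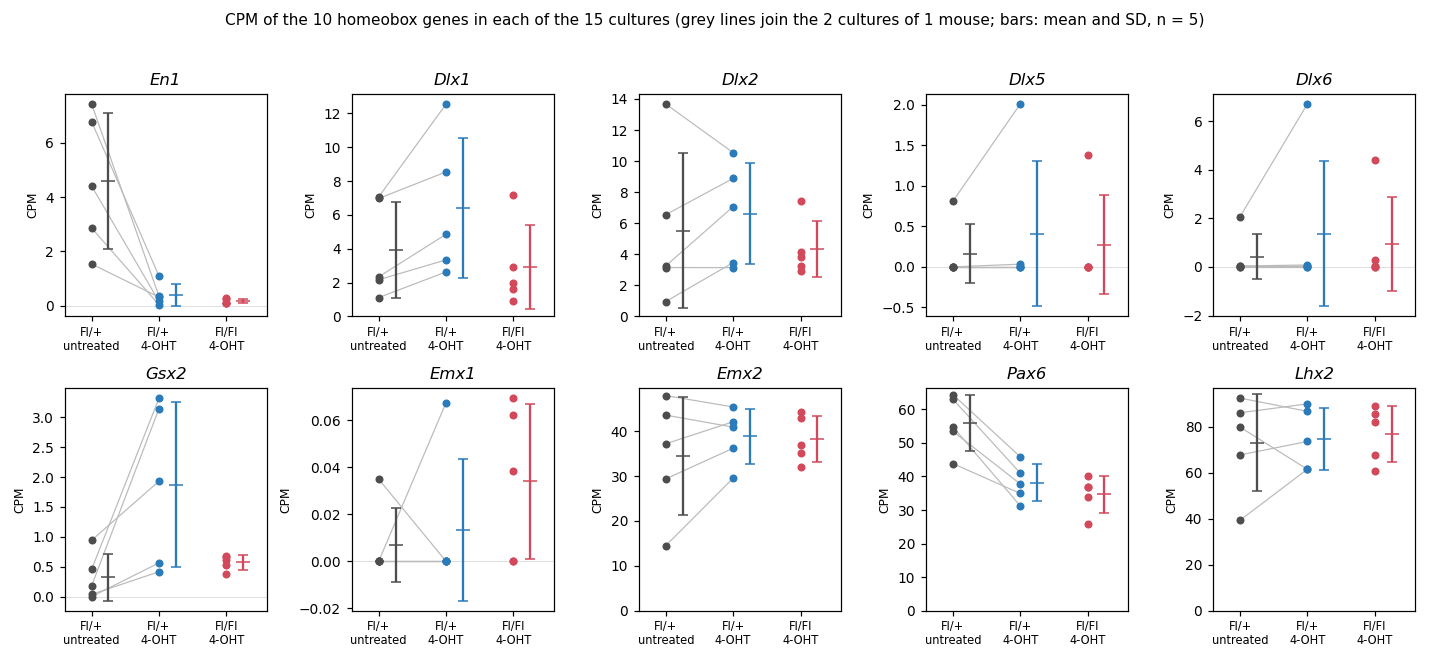
CPM of each homeobox gene (vertical axis, a scale of its own per panel) in the 3 groups, with 1 point per culture, the mean and SD beside the points, and grey lines joining the 2 cultures of 1 mouse. En1 and Pax6 fell in all 5 mice after 4-OHT, Dlx1 and Gsx2 were higher in all 5, and Dlx5 and Dlx6 stand out in 1 culture of each group.

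Gsx2, which confers ventral identity on telencephalic progenitors, lay low in untreated cultures and higher in all 5 mice after 4-OHT (chr5:75075601-75077893, plus strand). Untreated mice 19, 24, 26, 35 and 36 had 0.181, 0.942, 0.455, 0.0385 and 0 CPM, from 0 to 27 counts. After 4-OHT they had 3.14, 1.93, 3.32, 0.416 and 0.564 CPM, from 12 to 93 counts. The treated cultures of mice 35 and 36 were within the untreated range. The log2 fold change was 2.5 ± 0.85 (SE), which did not pass over all genes (edgeR adjusted p = 0.0751, exact permutation p = 0.0476). The exact sign-flip test over the 5 mice gave p = 0.0625, the smallest it can give. Gsx2 entered this fit through the treated libraries alone, since 3 of the 5 untreated ones had fewer than 10 counts, so its test, with or without a block on the mouse (adjusted p = 0.00702 with it, and 0.00702 to 0.159 over 18 alternatives), is not support for a rise. Without mouse 36 the log2 fold change was 2.42 ± 0.78 (adjusted p = 0.0768).

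Gsx2 was also the 1 member called under Trrap deletion. The Fl/Fl 4-OHT cultures of mice 27, 28, 29, 37 and 39 had 0.528, 0.680, 0.655, 0.619 and 0.382 CPM, a narrow band that overlaps the 2 lowest Fl/+ 4-OHT cultures. Their mean of 0.573 ± 0.121 CPM stood against 1.87 ± 1.37 CPM (SD, n = 5 each), with a log2 fold change of -1.69 ± 0.54 (SE), 3.22-fold lower, and an edgeR adjusted p of 0.0340. The exact permutation test gave p = 0.135. The call was lost without any 1 of 8 libraries (Fl/+ 4-OHT 19, 24 or 26, or any of the 5 Fl/Fl cultures), without Fl/Fl 29 and 39 together (adjusted p = 0.130) and in 1 fit over all 15 libraries (adjusted p = 0.0856). Against untreated cultures, the Fl/Fl level was higher by 0.81 ± 0.71 on the log2 scale, with groups that overlap (adjusted p = 0.419).

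Gsx1, the paralog of Gsx2 in the same ventral progenitors, had a level per length of 6.50 RPKM untreated against 0.194 RPKM for Gsx2. It was at 10.9, 9.17, 12.6, 9.08 and 15.8 CPM in untreated mice 19, 24, 26, 35 and 36. After 4-OHT it was at 34.3, 25.4, 34.2, 18.9 and 24.9 CPM, each above every untreated culture. The log2 fold change was 1.26 ± 0.21 (SE, edgeR adjusted p = 0.00306, exact permutation p = 0.00794, the smallest possible). The exact sign-flip test over the mice gave p = 0.0625, also the smallest it can give. The Fl/Fl 4-OHT cultures had 16.8, 12.7, 11.4, 8.04 and 15.8 CPM, each below every Fl/+ 4-OHT culture (log2 fold change -1.07 ± 0.22, edgeR adjusted p = 0.00424). Their level was close to that of untreated cultures in mean (12.97 ± 3.53 against 11.5 ± 2.81 CPM, log2 fold change 0.18 ± 0.22, adjusted p = 0.574). The Trrap deletion and 4-OHT contrasts share the Fl/+ 4-OHT libraries, so opposite signs in them are not independent.

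Dlx1 and Dlx2, distal-less factors that drive interneuron differentiation, lie tail to tail with 9426 bases between them (chr2:71528113-71533981, plus strand, and chr2:71543408-71546754, minus strand). Dlx1 was at 2.17, 6.98, 2.34, 1.12 and 7.07 CPM in untreated mice 19, 24, 26, 35 and 36 and at 3.35, 8.55, 4.86, 2.63 and 12.6 CPM after 4-OHT. All 5 mice were higher after treatment, and the order of the mice was the same in both groups, 36 first and 35 last. Without pairing the difference was within the spread between mice (log2 fold change 0.70 ± 0.56 SE, edgeR adjusted p = 0.440). Blocked on the mouse, it passed (0.79 ± 0.18, adjusted p = 0.0139, against a range of 0.0139 to 0.767 over 19 alternatives). Without both cultures of mouse 36 and without the block it was 0.62 ± 0.56 (adjusted p = 0.493).

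Dlx2 was at 3.15, 13.7, 3.25, 0.962 and 6.55 CPM in the untreated cultures and at 3.14, 10.5, 7.07, 3.47 and 8.89 CPM after 4-OHT. It was higher in 3 and lower in 2 of the 5 mice (log2 fold change 0.26 ± 0.59, edgeR adjusted p = 0.804). In both groups mouse 24 had the most and mouse 36 the next most. The Fl/Fl cultures 27, 28, 29, 37 and 39 had 1.62, 2.92, 7.18, 1.97 and 0.903 CPM of Dlx1 and 2.95, 3.23, 7.44, 3.83 and 4.13 CPM of Dlx2. Fl/Fl 29 was the highest of its group for both genes. Under Trrap deletion neither gene passed (Dlx1 -1.11 ± 0.57, adjusted p = 0.159, and Dlx2 -0.60 ± 0.37, adjusted p = 0.243). Without Fl/Fl 29, Dlx1 was lower by 1.78 ± 0.50 on the log2 scale (adjusted p = 0.0250, over alternatives 0.0250 to 0.356), so that library decides the call. Without Fl/Fl 29 and 39 together the fall was 1.55 ± 0.53 (adjusted p = 0.0667).

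Dlx5 and Dlx6, the second convergent pair of the family (chr6:6877805-6882085, minus strand, and chr6:6863334-6868568, plus strand), were found in 3 libraries and hardly at all in the other 12. Dlx6 had 56 counts (2.06 CPM) in the untreated culture of mouse 36, 190 counts (6.70 CPM) in the 4-OHT culture of the same mouse and 134 counts (4.39 CPM) in Fl/Fl 29. In the other 12 libraries Dlx6 had 0 to 8 counts. Dlx5 had 22, 57 and 42 counts in the same 3 libraries (0.810, 2.01 and 1.38 CPM) and 0 or 1 count elsewhere. The antisense transcript Dlx6os1, which overlaps Dlx6 and is a cofactor of Dlx proteins, had 20, 25 and 30 counts there and at most 3 elsewhere. Neither gene passed the filter, and none of the group contrasts could be tested by edgeR. These are the cultures with Xist or lower Y-linked transcripts described above, and the part of that in these values was not tested.

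The summed level of neuron markers did not set these 3 cultures apart. The 9 neuron markers summed to 1014 CPM in untreated mouse 36, where its group ran from 901 to 1199 CPM. They summed to 911 CPM in treated mouse 36 (group 894 to 1109 CPM) and to 779 CPM in Fl/Fl 29 (group 656 to 856 CPM). Dcx, 1 of these markers, was the lowest of its group in untreated mouse 36 (26.9 CPM) and the highest in Fl/Fl 29 (10.5 CPM). In treated mouse 36 it was at 46.0 CPM, inside the range of its group. Glial markers did differ in treated mouse 36, where the 7 astrocyte markers summed to 5204 CPM (3995 to 4405 CPM in the other 4 cultures of its group), Gfap was at 1279 CPM (63.7 to 809 CPM) and Mbp at 282 CPM (48.1 to 114 CPM). In untreated mouse 36 and in Fl/Fl 29 the astrocyte sum was the lowest of the group, at 3469 and 3407 CPM. The part of these markers in the Dlx5 and Dlx6 levels was not tested. Gad1, the enzyme that makes GABA and a known target of Dlx factors, was at 19.1 CPM in untreated mouse 36, 15.3 CPM after 4-OHT and 13.2 CPM in Fl/Fl 29. Only the last was the highest of its group. Dlx3 and Dlx4, paralogs better known from skin and placenta, had at most 40 and 6 counts. Dlx4 was lower in 5 of 5 mice after 4-OHT, from 1 to 6 counts to 0 or 1, which is near the floor. Dlx3 was higher in 4 of 5 mice after 4-OHT (0.728 ± 0.403 against 0.223 ± 0.0783 CPM, exact permutation p = 0.0159) but did not pass the filter there. That permutation test takes the cultures as unpaired, and the exact sign-flip test over the 5 mice gave p = 0.125.

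Dlx1 and Dlx2 varied among cultures of 1 group more than most genes. On log2(CPM + 0.5), the SD within groups was 0.92 for Dlx1 and 0.86 for Dlx2, above that of 98.5% and 98.1% of all genes that averaged over 1 CPM (median 0.22). It was 0.59 for En1 (94.0%), 0.43 for Emx2 (84.5%), 0.35 for Lhx2 (76.2%) and 0.22 for Pax6 (51.2%). The order of the 5 Fl/+ mice was kept for 10 of 10 pairs of mice in Dlx1 and 9 of 10 in Dlx2 and Emx2, where 4.39% of 13333 genes kept 10 and 15.9% kept at least 9. It was kept for 8 pairs in Pax6 and 7 in Lhx2, En1, Gsx2 and Dlx6, at or just above the median of 7 over all genes, and for 4 in Dlx5 and 0 in Emx1, whose counts were mostly at or near 0. Zic1, a zinc finger factor of the dorsal and septal telencephalon named here after its values were seen, also varied widely by mouse. It was at 25.9, 50.1, 12.6, 0.115 and 75.6 CPM in untreated mice 19, 24, 26, 35 and 36 and at 7.27, 52.2, 5.81, 0.139 and 42.9 CPM after 4-OHT. Fl/Fl 29 had the highest level of its group (42.0 CPM) and Fl/Fl 37 the lowest (0.116 CPM).

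**Figure D3:**
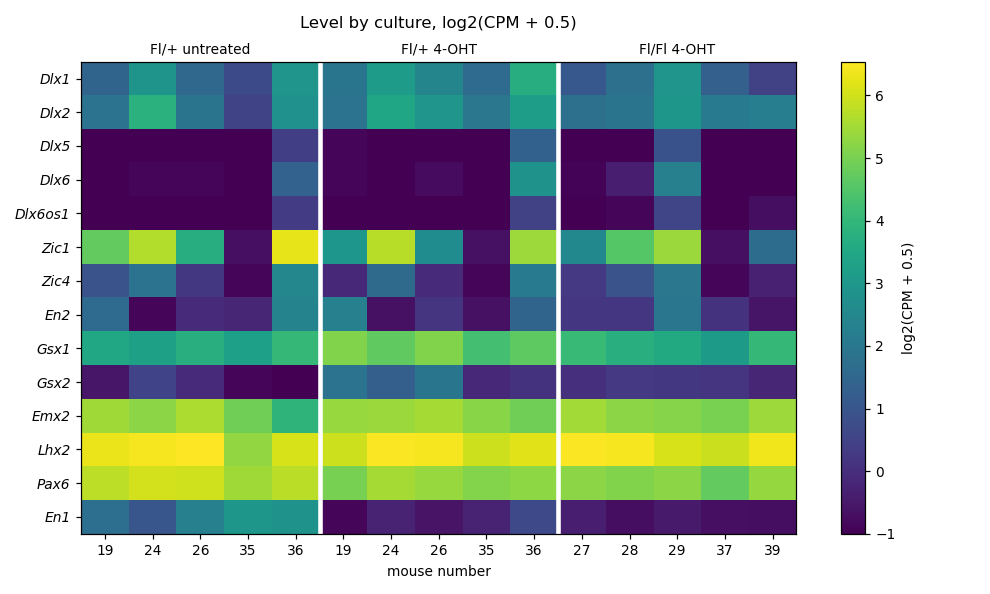
Level as log2(CPM + 0.5) of the homeobox genes with En2, Gsx1, Dlx6os1, Zic1 and Zic4 (rows) in the 15 cultures (columns, by mouse number within each group). Dlx5, Dlx6 and Dlx6os1 are brightest in both cultures of mouse 36 and in Fl/Fl 29. En1 is higher in each untreated culture (lowest 1.53 CPM) than in any culture given 4-OHT (highest 1.09 CPM), and the step between these 2 is small.

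Emx2 and Lhx2, both needed for growth and patterning of the cortical primordium, did not pass the test in any of the 3 contrasts. Emx2 (chr19:59458372-59465357, plus strand) was at 43.6, 37.2, 48.0, 29.4 and 14.5 CPM in untreated mice 19, 24, 26, 35 and 36 and at 40.9, 42.1, 45.4, 36.2 and 29.6 CPM after 4-OHT. The Fl/Fl cultures 27, 28, 29, 37 and 39 had 44.2, 37.0, 35.2, 32.1 and 43.1 CPM. The groups overlapped throughout, and the untreated culture of mouse 36 was the lowest of all 15. Log2 fold changes were 0.17 ± 0.26 for 4-OHT (edgeR adjusted p = 0.705) and -0.0049 ± 0.13 for Trrap deletion (adjusted p = 0.983). Emx2os, the antisense transcript that overlaps the first 264 bases of the gene, did not pass in either contrast (-0.07 ± 0.27, adjusted p = 0.892, and 0.11 ± 0.24, adjusted p = 0.749).

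Lhx2 (chr2:38339281-38369733, plus strand) was at 79.9, 86.1, 92.5, 39.3 and 67.7 CPM untreated and at 61.5, 90.0, 86.7, 61.5 and 73.6 CPM after 4-OHT in mice 19, 24, 26, 35 and 36. The Fl/Fl cultures 27, 28, 29, 37 and 39 had 88.9, 85.7, 67.7, 60.7 and 82.1 CPM. The untreated culture of mouse 35 was the lowest. Log2 fold changes were 0.03 ± 0.21 for 4-OHT (edgeR adjusted p = 0.939) and 0.06 ± 0.14 for Trrap deletion (adjusted p = 0.777). Emx1 (chr6:85187438-85204462, plus strand) had 0, 1 or 2 counts in all 15 libraries and could not be compared.

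The share of members called was set beside that of all genes. Under Trrap deletion 6 of the 10 members were tested and 1 was called, Gsx2, lower, where 31.7% of all 15036 genes tested were called, 16.8% higher and 15.0% lower. The median log2 fold change of the 6 was -0.36, against 0.02 for all genes. None of the 6 had groups that do not overlap, where 22.6% of all genes had. For 4-OHT, 6 of the 9 members other than En1 were tested and 1 was called, Pax6, lower, against 13.8% of 14821 genes called, 7.34% higher and 6.45% lower. The median of these 6 was 0.22, against -0.01. Gsx2 is 1 of the 6, and it entered this fit through the treated libraries alone. None of the 6 had groups without overlap, against 12.0% of genes. Blocked on the mouse, 2 of the 5 members other than Gsx2 were called (Dlx1 higher, Pax6 lower), beside 25.7% of all genes. In the contrast of Fl/Fl 4-OHT with untreated cultures 6 of 9 were tested and Pax6 was called lower, against 30.7% of 15032 genes, 15.7% higher and 15.1% lower. Pax6 was also the 1 member without overlap, against 23.1% of genes.

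**Figure D4:**
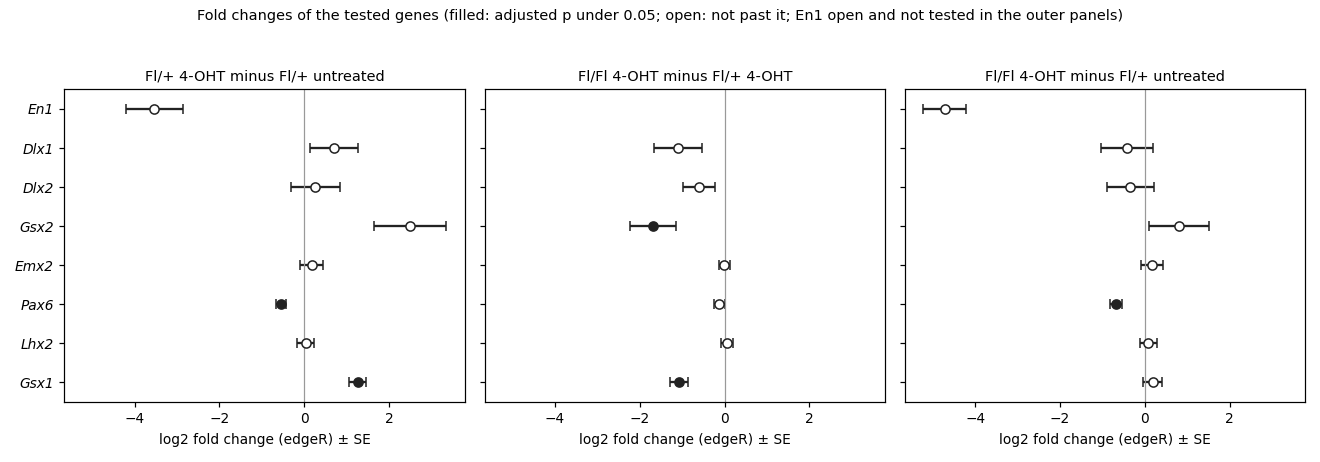
Log2 fold change with its SE from edgeR (horizontal axis) for the fitted homeobox genes and Gsx1 in the 3 contrasts, with En1 drawn open and untested in the outer panels. Filled points passed an adjusted p of 0.05: Pax6 in both contrasts with untreated cultures, Gsx2 under Trrap deletion, and Gsx1 in the 4-OHT and Trrap deletion contrasts.

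Among the other ventral factors, more were lower than higher after 4-OHT. Of 20 subpallial factors, 15 were tested, 1 was higher (Gsx1) and 4 were lower (7.34% and 6.45% of all genes), with a median of -0.35 against -0.01 for all genes. Sp9, a factor of interneuron differentiation, was lower (3.49 ± 2.00 against 10.3 ± 3.11 CPM, log2 fold change -1.56 ± 0.38 SE, edgeR adjusted p = 0.0200). Foxp2, a forkhead factor of striatal neurons, was lower by 1.18 ± 0.24 on the log2 scale (1.21 ± 0.155 against 2.74 ± 0.741 CPM, adjusted p = 0.00912). Under Trrap deletion 2 of 15 were lower (1 without Fl/Fl 29 and 39), a share near the 15.0% of all genes, and the rest did not pass. Against untreated cultures, 6 of 15 were lower in Fl/Fl 4-OHT (15.1% of all genes), among them Foxp2 (-2.0 ± 0.30, adjusted p = 0.000896) and Meis1 (-0.70 ± 0.11, adjusted p = 0.000956). Without Fl/Fl 29 and 39, 4 of 15 were lower, where 18.4% of all genes were called.

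Of 18 pallial factors, 11 were tested in each contrast, and 2, 2 and 3 were lower, where 15.0%, 6.45% and 15.1% of all genes were, under Trrap deletion, after 4-OHT and against untreated cultures. Those under Trrap deletion were Bcl11b, a zinc finger factor of deep-layer cortical neurons (2.97 ± 0.281 against 8.09 ± 1.85 CPM, log2 fold change -1.43 ± 0.18 SE, edgeR adjusted p = 0.000354), and Lmo3 (16.02 ± 3.53 against 27.8 ± 2.53 CPM, -0.78 ± 0.16, adjusted p = 0.00416). After 4-OHT, Lmo3 (-0.55 ± 0.09, adjusted p = 0.00394) and Id4 (-1.54 ± 0.25, adjusted p = 0.00318) were lower, and against untreated cultures Lmo3, Bcl11b and Id4 were lower in Fl/Fl 4-OHT. The medians were -0.34, -0.53 and -1.04 in Trrap deletion, 4-OHT and the contrast with untreated cultures. Of 14 telencephalic and anterior factors 10 were tested. Under Trrap deletion 2 were lower (1 without Fl/Fl 29 and 39), near the 15.0% of all genes, 1 of them Lmo4 (-0.36 ± 0.09, adjusted p = 0.0119), and against untreated cultures 1 was lower, Sox2 (-0.76 ± 0.17, adjusted p = 0.00734).

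Homeodomain proteins act with cofactors of the Pbx, Meis, Lmo, Ldb and Tle families, and 19 of 20 listed cofactors were tested. Under Trrap deletion 2 were higher and 6 lower, with a median of -0.17, where 16.8% and 15.0% of all genes were. Without Fl/Fl 29 and 39 the counts were 1 and 4, where 20.0% of all genes were called. Lmo2 was higher (1.04 ± 0.21, adjusted p = 0.00431), and Tle3, a co-repressor (-0.56 ± 0.09, adjusted p = 0.00137), and Pknox2 (-0.48 ± 0.11, adjusted p = 0.00628) were lower by edgeR. After 4-OHT 4 were lower (6.45% of all genes), among them Lmo2 (-0.84 ± 0.19, adjusted p = 0.0162) and Ldb2, a partner of LIM homeodomain proteins such as Lhx2 (-0.82 ± 0.23, adjusted p = 0.0369). Against untreated cultures 1 was higher, Pbx4 (0.84 ± 0.19, adjusted p = 0.00683), and 8 were lower, where 15.7% and 15.1% of all genes were. Without Fl/Fl 29 and 39 the counts were 1 and 5, where 18.4% of all genes were called.

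Genes of olfactory bulb interneurons, the neurons that Dlx and Gsx lineages supply, were called in both directions. Of 14, 9 were tested in each contrast. After 4-OHT 2 were higher and 3 lower (7.34% and 6.45% of all genes), with Calb2, a calcium-binding protein of periglomerular cells, higher by 2.78 ± 0.36 on the log2 scale (5.95 ± 1.65 against 0.862 ± 0.463 CPM, edgeR adjusted p = 0.00105). Without mouse 36, 2 were higher and 2 lower, where 10.8% of all genes were called. Under Trrap deletion 1 was higher and 3 lower (16.8% and 15.0% of all genes), and Dcx, a microtubule-associated protein of young neurons, was lower by 2.51 ± 0.41 (7.74 ± 2.86 against 44.5 ± 23.3 CPM, adjusted p = 0.00123), as was Cd24a (-1.66 ± 0.19, adjusted p = 0.000230). Without Fl/Fl 29 and 39, 0 were higher and 3 lower, where 20.0% of all genes were called. Against untreated cultures 2 were higher and 6 lower in Fl/Fl 4-OHT (15.7% and 15.1% of all genes). Without Fl/Fl 29 and 39 these became 2 and 4, where 18.4% of all genes were called. Among 12 paralogs of the members, Gsx1 alone was called in these 2 contrasts, of 3 tested under Trrap deletion and 2 for 4-OHT. Of 6 antisense and overlapping transcripts counted, 2 were tested, and Elp4 was the 1 called, under Trrap deletion.

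Markers of other cells moved with 4-OHT beside these genes. Of 10 oligodendrocyte lineage markers 6 were higher (7.34% of all genes), among them Sox10 (96.4 ± 20.8 against 25.1 ± 19.2 CPM, log2 fold change 1.94 ± 0.45 SE, edgeR adjusted p = 0.0163), Mbp (2.86 ± 0.69, adjusted p = 0.0205, and 0.0549 without mouse 36) and Pdgfra (1.49 ± 0.36, adjusted p = 0.0201). Pdgfra is also the nearest protein-coding gene to the right of Gsx2, 74398 bases away. Chic2, the nearest to the left at 30826 bases, was lower after 4-OHT (log2 fold change -0.75, edgeR adjusted p = 0.0145). The summed level of the 10 oligodendrocyte lineage markers ran from 3462 to 4511 CPM untreated, from 3371 to 4659 CPM in Fl/+ 4-OHT and from 3587 to 5403 CPM in Fl/Fl 4-OHT. Of the 7 astrocyte markers 1 was higher and 3 were lower after 4-OHT (7.34% and 6.45% of all genes), among the lower Aldoc (510 ± 39.8 against 853 ± 162 CPM, log2 fold change -0.74 ± 0.13 SE, edgeR adjusted p = 0.00442). Without mouse 36 the 3 called were all lower. The 7 summed to 3469 to 4589, 3995 to 5204 and 3407 to 7011 CPM in the same order. The Fl/Fl 4-OHT culture of mouse 37 stood apart on both lists and set both upper ends, with the other 4 at 3587 to 3753 CPM for the oligodendrocyte and 3407 to 4024 CPM for the astrocyte markers. The 5 ependymal and choroid plexus markers summed to 28.5 to 64.0, 43.4 to 99.5 and 79.9 to 104 CPM. The 9 neuron markers summed to 901 to 1199, 894 to 1109 and 656 to 856 CPM.

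In Fl/Fl 4-OHT against untreated cultures, where Pax6 was lower too, 6 of the 10 oligodendrocyte lineage markers were higher and 1 lower, and all 3 ependymal and choroid plexus markers tested were higher (15.7% of all genes were higher and 15.1% lower). Leaving out Fl/Fl 29 and 39, 5 of the 10 and again all 3 were higher. Mbp, a myelin protein, was at 81.0 to 154 CPM in 4 of the Fl/Fl 4-OHT cultures and at 1013 CPM in that of mouse 37, against 4.64 to 44.7 CPM untreated (log2 fold change 4.18 ± 0.92 SE, edgeR adjusted p = 0.00610). Gfap, an intermediate filament of astrocytes and adult stem cells, was at 231 to 532 CPM in 4 and at 2264 CPM in mouse 37, against 14.5 to 108 CPM (3.72 ± 0.77, adjusted p = 0.00441), and was the 1 astrocyte marker higher, with 3 lower that were not called without Fl/Fl 29 and 39. Foxj1, a factor of ciliated ependymal cells, was higher by 1.09 ± 0.20 on the log2 scale (adjusted p = 0.00227). Of the 8 neuron markers tested 5 were lower, and 2 without Fl/Fl 29 and 39. Of the 10 neural stem cell markers 3 were lower (2 without these cultures), among them Fabp7 (-0.91 ± 0.16, adjusted p = 0.00194) and Sox2 (-0.76 ± 0.17, adjusted p = 0.00734).

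Under Trrap deletion, where Gsx2 and Gsx1 were lower, 3 of the 10 neural stem cell markers and 2 of the 8 neuron markers were lower (15.0% of all genes), and 2 and 1 without Fl/Fl 29 and 39. Fabp7 was among the former (-0.61 ± 0.13, edgeR adjusted p = 0.00552). Of 7 astrocyte markers 1 was called, Aldoc, higher (0.38 ± 0.08, adjusted p = 0.00439). The 10 oligodendrocyte lineage markers had a median log2 fold change of 0.14, against 0.02 for all genes. The part of all these markers in the changes of En1, Pax6, Gsx2 and Gsx1 was not tested.

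As a description over the 15 libraries, which come from 10 mice and share group differences, the gene most like Dlx2 was Dlx1 (Pearson r = 0.83 on log2(CPM + 0.5), and 0.83 after the group means were subtracted). The genes most like Dlx1 were Sema3a (r = 0.85), Dlx2 and Gm43719 (r = 0.83), and Dlx2 was followed by Cpne7 (r = 0.78) and Gm43719 (r = 0.77). Those most like Emx2 were Rcan2 (r = 0.93), Coro2b (r = 0.93) and Vxn (r = 0.88). Pax6 was most like Adcy8 (r = 0.95), Mical1 (r = 0.94) and Slc2a12 (r = 0.93), and Lhx2 most like Aars2 (r = 0.83), Aldh16a1 (r = 0.83) and Lmo1 (r = 0.82). En1 was most like Pcdh18 (r = 0.95), Rcn2 (r = 0.94) and Pnrc2 (r = 0.94), which fell to 0.71, 0.69 and 0.66 once the group means were removed. Pax6 and Lhx2 had r = 0.33, and 0.83 after the group means were removed.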

How the data were processed

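The authors made stranded mRNA libraries from 15 aNSC cultures and read them from a single end. Per the labels, they mapped the reads with STAR 2.5.4b to GRCm38 and assigned unique reads to genes with featureCounts 1.5.0. The deposited values are raw counts. Genes with close copies can be undercounted, since a read had to map to 1 place, and PCR copies were counted. The floor of detection covers counting error only, whereas the SDs and edgeR SEs include the spread between cultures. Gene IDs were matched to GENCODE M21 (53706 of 53801). The labels and methods describe the 4-OHT exposure differently, so no dose is given.

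Counts were analysed in edgeR 4.0.16 (R 4.3.3): filterByExpr with a minimum count of 10, TMM, the quasi-likelihood F test on the 10 libraries of each contrast and Benjamini-Hochberg adjustment over all genes, called under 0.05. CPM uses TMM-scaled library sizes, and RPKM divides it by the union exon length. Exact two-sided permutation and sign-flip tests used log2(CPM + 0.5). The scripts were tested on simulated data.

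Fl/+ cultures with and without 4-OHT came from the same 5 mice. Deviations of 13333 genes from the group means correlated with r of 0.17 to 0.66 within a mouse, against -0.58 to 0.36 between mice, so the mouse number was used as a block in an alternative. Other alternatives were DESeq2 1.42.0, other scalings and filters, 1 fit of all libraries, labelled sex and each library left out. Leaving out mouse 36, or Fl/Fl 29 and 39, was added after the data had been seen.

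The members and gene lists were chosen with earlier results of these data known. Besides members, Trrap, paralogs and antisense transcripts, the text names up to 4 genes per list and contrast with the largest log2 fold change among those called, with a mean of at least 1 CPM and groups without overlap, and the 3 genes most like each member. Genes outside this rule are named as such or as markers. Where the labels do not say that cultures were grown apart, p-values measure the spread between these samples. Some genes that this rule would name are not reported here.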

Additional observations from a re-analysis of the deposited data

Results flagged for a closer look

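Of 30 sets of 5 libraries (10 genes in 3 groups), 9 held a library whose gap to the nearest other exceeded Dixon's critical ratio of 0.71. The usual rate of about 1 in 20 by chance holds for normal values and not for sets where 4 of 5 libraries were at 0 (Dlx5 in untreated and Fl/Fl 4-OHT cultures, and both Emx1 sets), whose ratio is 1 whatever the count. Mouse 36 and Fl/Fl 29 account for 7 of the 9. Dlx5 was at 0.810 CPM in the untreated culture of mouse 36 (the next at 0), at 2.01 CPM in its 4-OHT culture (next 0.0338) and at 1.38 CPM in Fl/Fl 29 (next 0). Dlx6 was at 2.06, 6.70 and 4.39 CPM in the same libraries (next 0.0350, 0.0790 and 0.272 CPM). Dlx2 in Fl/Fl 29 was at 7.44 CPM (next 4.13). The other 2, for Emx1, rest on 1 count (0.0350 CPM, untreated mouse 26) and 2 counts (0.0676 CPM, mouse 19 after 4-OHT). Whether the Xist and Y-linked values of mouse 36 and Fl/Fl 29 bear on this was not tested.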

How the results depend on the processing

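Pax6 was called lower in Fl/Fl 4-OHT against untreated cultures under all 18 alternatives, with log2 fold changes of -0.79 to -0.58. En1 stayed lower after 4-OHT (-4.37 to -3.23) and in Fl/Fl 4-OHT (-4.99 to -4.49) wherever it was fitted. The count of members called under Trrap deletion went from 1 to 0 in 1 fit over all 15 libraries and without Fl/Fl 29 and 39, and ran from 0 to 1 with single libraries left out. For 4-OHT it was 2 in 1 fit over all 15 libraries and with labelled sex as a covariate, 3 with the mouse as a replicate block, and 0 to 2 with single libraries left out. These counts of 2 and 3 include Gsx2, which entered the fit through the treated libraries alone, so they are not support for more members called. The block changed the calls of Dlx1 and Gsx2 and of no other member. All genes called for 4-OHT numbered 2044, 3809 with the replicate block, and 1271 to 2522 with single libraries left out (1271 without treated mouse 19 and 1311 without treated mouse 35). Without Fl/Fl 29 and 39 the calls were 3066 under Trrap deletion and 2829 against untreated cultures, against 4773 and 4620. With single libraries left out they ran from 3772 to 4734 and from 3700 to 4735. Scaling by library size alone gave 2848 higher and 1951 lower under Trrap deletion, 1396 and 712 for 4-OHT, and 3150 and 1603 against untreated cultures. None of these settings reversed the sign of a called member. Emx1, with at most 2 counts, is under the floor in all 15 libraries. Beside the settings that leave out libraries, the cause was not tested.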
